A study of Mus musculus with 6 samples.

Results

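Genes for transcription factors and cofactors that set the fate of beige and white adipocytes were followed in mouse inguinal fat (iWAT), the subcutaneous white depot where beige cells arise. They were taken by name, namely Prdm16, Ebf2, Zfp516, Irf4, Ehmt1, Cebpa, Cebpb, Cebpd, Tle3 and Zfp423, and all 10 are among the 16538 genes of the deposited table. RNA-Seq was done on 3 control samples and 3 samples from mice that lack Nrg4 in adipocytes (AKO), with RNA of 2 mice of a genotype mixed in every sample. The labels call the controls wt, and the study describes them as fl/fl, so that by that account both groups carry the floxed Nrg4 allele and only AKO mice carry Cre, driven by the adiponectin promoter in fat cells. Both groups were kept in the cold at 8°C for 10 days according to the labels, the study's text gives a slightly longer stay, and no sample of the series was kept warm. The age and sex of these mice were not given in the sources used here.

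When mice stay in the cold, sympathetic nerves release noradrenaline in fat, cAMP rises in the adipocytes, and beige adipocytes that burn fuel to make heat appear in iWAT. Which genes such a cell can switch on is set by a small group of nuclear proteins. PRDM16 and EBF2 open and activate brown-type genes such as Ucp1, and C/EBP proteins and PPARG give the adipocyte program that all fat cells share. TLE3 and ZFP423 work on the other side and hold back the brown-type program.

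The values are normalized counts, that is reads per gene divided by a scaling factor for each sample, and are not divided by gene length. Reads summed over the listed genes ran from 17570335 to 18373707 a sample, and the 10 genes had between 306 and 28384 reads in a sample, and the SD of the control reads was above the counting error for 9 of them and below it for Ebf2 (18.6 against 28.0 reads). Genotypes were compared with limma on log2(normalized count + 1) over the 13855 genes whose mean reached 10. The threshold was a Benjamini-Hochberg adjusted p under 0.05 over all of these genes. All 8 adipocyte markers were present in every sample. Their summed level was 346031 to 372567 normalized counts in control and 311767 to 341922 in AKO, a difference in means of -9.20%. Fabp4 was the largest part of this sum (mean 200118 of 363045 in control). Gene by gene, 7 of the 8 were lower and Lep was higher (median log2 fold change -0.10), and none had a p under 0.05 before adjustment with limma. Nrg4 itself, the targeted gene, was at 3128, 3102 and 3092 in control and at 2577, 2627 and 2691 in AKO (log2 fold change -0.24, standard error (SE) 0.05, limma adjusted p = 0.298). Its groups did not overlap, and these counts do not set the floxed exons apart from the rest of the gene. By qPCR, the study reports almost no Nrg4 mRNA in iWAT of AKO mice. In whole tissue, fewer cells of a type and less RNA per cell cannot be told apart.

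The means of the activators Prdm16, Ebf2, Zfp516, Irf4 and Ehmt1 lay within 10% of control in AKO iWAT, and their groups overlapped. Their 95% intervals were wider, from -34.0% to 26.7% for Irf4. Cebpb, whose protein is a partner of PRDM16, was lower by 31.8%. In AKO, 13 of 14 tested brown target genes were lower. Levels in beige cells alone were not measured, and the part of the activators in the lower targets was not tested. Prdm16 and Ebf2 differed by less than 4% between the group means, while Ucp1 was at 0.298 of its control level. Among the 10 fate factors, Cebpb was the lowest relative to control (log2 fold change -0.57) and Tle3 was higher in every AKO sample (0.23). None of the 10 passed the adjusted threshold with limma or with the quasi-likelihood test of edgeR, and DESeq2 called 1, Cebpb. Before adjustment, 2 of the 10 had a p under 0.05 with limma, 1 lower and 1 higher, where 9.10% of all genes tested did (4.69% lower and 4.41% higher). The groups did not overlap for 3 of the 10 (Cebpa and Cebpb lower, Tle3 higher), where 14.5% of all genes tested did not overlap and 8.31% were lower without overlap. Over all genes tested, limma called 0.0144%, edgeR 0.0144% and DESeq2 0.998%. At an adjusted p under 0.1 limma called none of the 10 and 0.0794% of all genes. The median log2 fold change of the 10 was -0.05, against 0.01 over all 13855 genes.

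**Figure D1:**
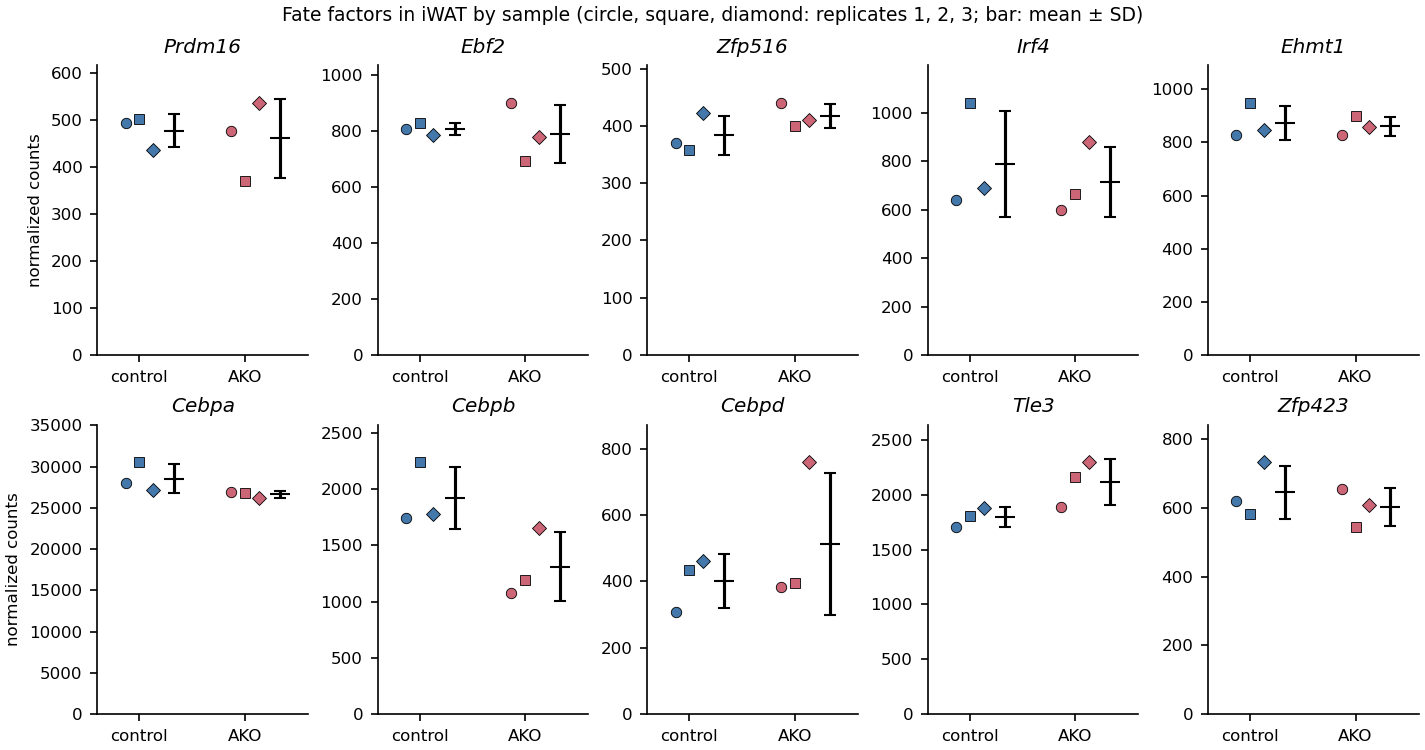
Normalized counts of the 10 fate factors in each of the 3 control and 3 AKO samples (y axes start at 0; circle, square and diamond are replicates 1, 2 and 3, and bars show mean ± SD). The control and AKO points interleave for Prdm16, Ebf2, Zfp516, Irf4, Ehmt1, Cebpd and Zfp423, and are apart for Cebpa, Cebpb and Tle3.

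Prdm16 (chromosome 4, 154316125 to 154636873 of GRCm38, minus strand) encodes a large zinc finger coregulator that is needed for the beige program. Its control samples read 493, 502 and 437 normalized counts and its AKO samples 476, 370.0 and 536. AKO held both the lowest and the highest sample, replicates 2 and 3, and the controls lay between them. Control averaged 477 ± 35.2 and AKO 461 ± 84.1 (SD, n = 3). The log2 fold change was -0.06 (SE 0.14, limma adjusted p = 0.931), and its 95% interval ran from -0.38 to 0.25. A fall of up to 23.2% or a rise of up to 19.0% thus lies inside the interval. Without AKO replicate 2 the log2 fold change was 0.08, so the sign rested on that sample.

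Ebf2 (chromosome 14, 67233292 to 67430918, plus strand), which marks precursors committed to the brown and beige lineage, read 808, 829 and 788 in control. In AKO it read 901, 693 and 778, so that the AKO samples again spread to both sides of the controls. The log2 fold change was -0.04 (SE 0.10, 95% interval -0.27 to 0.19, limma adjusted p = 0.944), and it was 0.05 without AKO replicate 2. Of its exonic bases, 6.12% are shared with Gm10860 on the opposite strand. Zfp516 (chromosome 18, 82910663 to 83005314, plus strand), a cold-responsive zinc finger factor that acts at the Ucp1 promoter, read 370.3, 358 and 422 in control, against 440, 399 and 411 in AKO. The groups overlapped at a single control sample, replicate 3, and the log2 fold change was 0.12 (SE 0.09, 95% interval -0.09 to 0.33, limma adjusted p = 0.745).

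Irf4 (chromosome 13, 30749226 to 30766976, plus strand) encodes an interferon regulatory factor that joins PGC-1α in switching on thermogenic genes, and that lymphocytes also use. Control replicates stood at 639, 1041 and 688 normalized counts, AKO replicates at 598, 666 and 878. A single sample in each group was high, control replicate 2 and AKO replicate 3, and the other 4 samples lay between 598 and 688. The 13 lymphocyte markers in the table, of 14 listed, summed to 287 and 322 normalized counts in these 2 samples, and to between 315 and 1723 in the other 4. The part of lymphocytes in the level of Irf4 was not tested. The log2 fold change of Irf4 was -0.13 (SE 0.20, 95% interval -0.60 to 0.34, limma adjusted p = 0.903), and it was 0.09 without control replicate 2. Ehmt1 (chromosome 2, 24789928 to 24919614, minus strand), the histone methyltransferase of the PRDM16 complex, was the steadiest of the activators. Levels of 829, 948 and 846 in control met 827, 898 and 860.0 in AKO, for a log2 fold change of -0.02 (SE 0.08, 95% interval -0.19 to 0.15, limma adjusted p = 0.968). Its sign turned without control replicate 2 (0.04) and without AKO replicate 1 (0.01).

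The 3 C/EBP genes encode related basic leucine zipper factors that act in sequence in adipocyte formation, CEBPB and CEBPD early and CEBPA in the mature cell. Cebpb has a further role in beige fat, since its protein is a partner of PRDM16 and its gene responds to cAMP. Cebpb (chromosome 2, 167688915 to 167690418, plus strand) has a single exon. Its control samples read 1741, 2239 and 1778 normalized counts, and its AKO samples 1077, 1193 and 1656. All 3 AKO values lay under the control range, and AKO replicate 3 came within reach of the controls. Control averaged 1919 ± 277 and AKO 1309 ± 307 (SD, n = 3), lower by 31.8% in AKO (exact permutation test, 2-sided p = 0.1, the smallest that 3 samples against 3 allow). The log2 fold change was -0.57 (SE 0.17, 95% interval -0.95 to -0.19), with a p of 0.00914 before and 0.414 after adjustment over all genes with limma. DESeq2 on the reads recovered from the table gave an adjusted p of 0.0354, and edgeR gave 0.452. Over the fits that left out 1 sample, the log2 fold change lay between -0.75 (without AKO replicate 3) and -0.44 (without AKO replicate 1), and the p before adjustment with limma was between 0.000601 and 0.0358. Of the exonic bases of Cebpb, 20.7% are also exonic in Tmem189 on the opposite strand, and whether reads were counted by strand is not stated. Tmem189 averaged 975 ± 67.4 in control and 967 ± 68.1 in AKO (normalized counts, SD, n = 3).

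Cebpa (chromosome 7, 35119293 to 35121928, plus strand), the factor of the mature adipocyte, read 27958, 30524 and 27165 in control, against 26944, 26808 and 26178 in AKO. The AKO values lay under the control range by a narrow gap, and the AKO mean was lower by 6.67%, beside -9.20% for the summed adipocyte markers. The part of this shift in markers in the level of Cebpa was not tested. Its log2 fold change was -0.10 (SE 0.08, 95% interval -0.28 to 0.08, limma adjusted p = 0.764). Cebpd (chromosome 16, 15887286 to 15891031, plus strand), an early factor that glucocorticoids induce, read 307, 434 and 462 in control, against 382, 396 and 759 in AKO. AKO replicate 3 stood far above the other 5 samples, which overlapped. The log2 fold change was 0.30 (SE 0.27, 95% interval -0.33 to 0.93, limma adjusted p = 0.801) and became -0.02 without AKO replicate 3. Of the exonic bases of Cebpd, 15.0% are shared with Spidr on the opposite strand, which averaged 131 ± 5.13 in control and 137 ± 3.95 in AKO (normalized counts, SD, n = 3).

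Tle3 (chromosome 9, 61372366 to 61418497, plus strand) encodes a Groucho-family corepressor that works with PPARG in fat cell formation and opposes PRDM16 at thermogenic genes. It lies 6.05 Mb from Nrg4 on the same chromosome. Control replicates stood at 1705, 1803 and 1882 normalized counts, AKO replicates at 1889, 2164 and 2295. The AKO values lay over the control range, although AKO replicate 1 and control replicate 3 were nearly equal. Control averaged 1797 ± 88.5 and AKO 2116 ± 207 (SD, n = 3), higher by 17.8% in AKO (exact permutation test, 2-sided p = 0.1). The log2 fold change was 0.23 (SE 0.08, 95% interval 0.04 to 0.43), with a p of 0.0249 before and 0.504 after adjustment with limma, 0.464 after adjustment with edgeR and 0.432 with DESeq2. Without any of control replicate 1, control replicate 2, AKO replicate 2 or AKO replicate 3, its p before adjustment was above 0.05, between 0.0507 and 0.0942, with a log2 fold change from 0.17 to 0.24. In each of those 4 fits Cebpb was then the only one of the 10 genes with a p under 0.05.

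Signals that switch a gene on act in part through factors bound just before its start. Promoters from RefSeq (GRCm38.p6) were held for 7 of the 10 genes, and the 250 bases before the start were searched on both strands for the core of the cAMP response element (CRE), which CREB binds when cAMP rises. The promoters of the 2 genes with a p under 0.05 before adjustment are shown, with that of Cebpa as the relative of Cebpb. They are chr2:167688665-167688914, chr9:61372116-61372365 and chr7:35119043-35119292, all on the plus strand, and capitals mark the CRE core, TGACG or its reverse complement CGTCA.
Cebpb: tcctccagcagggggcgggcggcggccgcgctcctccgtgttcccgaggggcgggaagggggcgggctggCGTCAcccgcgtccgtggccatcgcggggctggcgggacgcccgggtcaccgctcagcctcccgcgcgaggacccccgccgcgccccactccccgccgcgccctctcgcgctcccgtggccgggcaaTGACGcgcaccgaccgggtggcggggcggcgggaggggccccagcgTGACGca
Tle3: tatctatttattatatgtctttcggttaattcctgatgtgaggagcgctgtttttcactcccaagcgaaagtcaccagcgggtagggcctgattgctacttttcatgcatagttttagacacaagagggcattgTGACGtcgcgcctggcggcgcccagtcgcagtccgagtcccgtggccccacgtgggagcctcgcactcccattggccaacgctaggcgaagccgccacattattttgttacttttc
Cebpa: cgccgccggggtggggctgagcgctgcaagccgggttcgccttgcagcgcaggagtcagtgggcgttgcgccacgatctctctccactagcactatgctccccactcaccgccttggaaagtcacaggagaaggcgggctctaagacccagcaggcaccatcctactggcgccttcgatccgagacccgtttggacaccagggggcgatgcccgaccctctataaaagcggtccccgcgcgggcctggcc

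The Cebpb promoter held 3 CRE cores, which begin 180, 53 and 7 bases before the start. Tle3 held 1, at 116 bases, and Cebpa, Prdm16, Irf4, Ehmt1 and Zfp423 held none. Over all 32851 promoters of this length, 17.8% held at least 1 core and 0.688% held 3 or more. The full site TGACGTCA was in none of the 7 genes and in 1.55% of all promoters, and the EBF motif (TCCC, 2 open bases, GGGA) was in none of the 7 and in 0.779% of all. The C/EBP site TTGCNNAA was in 1 of the 7, Zfp423, and in 9.56% of all promoters. A match is a run of letters and not a measured site, and these letters were not linked to any level by a test.

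Zfp423 (chromosome 8, 87661810 to 87959595, minus strand), which commits precursors to the adipocyte lineage and holds mature white adipocytes in their state by restraining EBF2, read 619, 583 and 732 in control. In AKO it read 655, 545 and 606, with the groups overlapping. Its log2 fold change was -0.10 (SE 0.11, 95% interval -0.34 to 0.15, limma adjusted p = 0.845). AKO replicate 2 had the lowest level of Prdm16, Ebf2 and Zfp423 alike.

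Markers of other cells in the depot also differed between samples. The 12 skeletal muscle genes, all detected in every sample, summed to 164, 23117 and 13063 normalized counts in control and 17012, 65979.7 and 99782 in AKO. The 2 samples with the most muscle RNA, AKO replicates 3 and 2, were also the 2 with the most Tle3, and control replicate 1, with the least, had the least Tle3 and Cebpd. AKO replicate 1 had the lowest Cebpb level, with muscle genes inside the control range. The part of muscle RNA in the levels of Tle3, Cebpd and Cebpb was not tested. The 10 progenitor markers summed to 23699 to 31731 normalized counts in control and 29502 to 37467 in AKO, and the 10 macrophage markers to 11493 to 16419 and 14228 to 19703. Summed levels of the 8 endothelial markers were 20877 to 22412 and 19237 to 21933, and those of the 9 mammary epithelial markers, 4 of them at 0 in at least 1 sample, were 130.1 to 1481 and 274 to 1846. The groups overlapped for each of these sums. Gene by gene, all 10 macrophage markers had a higher AKO mean (median log2 fold change 0.37), 5 of them with a p under 0.05 before adjustment with limma, where 4.41% of all genes tested were higher at that p. Of the 10 progenitor markers 9 were higher (median 0.29), 4 with a p under 0.05, and Pdgfra, Dpp4 and Cd34 did not overlap between the groups. Over all genes tested, 48.1% were lower in AKO and 14.5% did not overlap, in either direction. DESeq2 called 1 progenitor marker, Dpp4, higher, where it called 0.998% of all genes in either direction, and limma called no gene of either list. Of the 12 muscle genes 10 were higher (median 3.66), 1 with a p under 0.05. That median leans on control replicate 1, where muscle RNA was nearly absent (Ckm 4.01, against 1363 and 961 in control replicates 2 and 3). The mean muscle sums were 12115 in control and 60925 in AKO. For lymphocyte, mammary and endothelial markers no gene had a p under 0.05. The part of all these cells in the levels of the 10 fate factors was not tested.

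**Figure D2:**
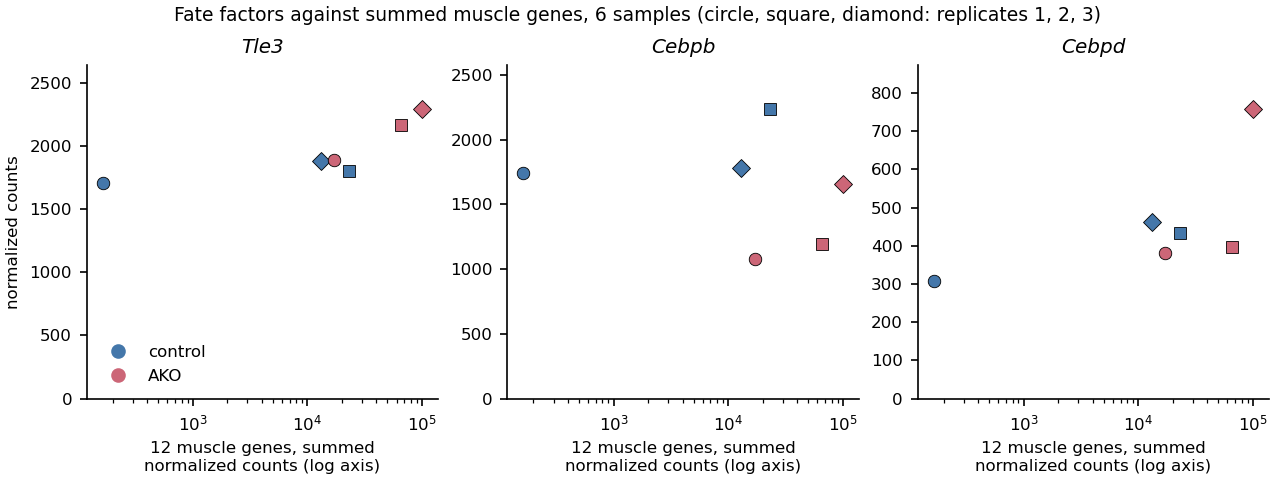
Normalized counts of Tle3, Cebpb and Cebpd (y axes from 0) against the summed normalized counts of 12 skeletal muscle genes (log axis) in the 6 samples, with shapes for replicates and colors for groups. The 2 AKO samples farthest to the right are highest for Tle3, 1 of them is highest for Cebpd, and all AKO points of Cebpb lie below all control points.

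Divided by exon length, the levels of the 10 genes were far apart. Cebpa had 10469 normalized counts per kb as the mean of the 6 samples, and Cebpb 1073. Each stood clear of the next in order, with no overlap between samples. Tle3 (168), Irf4 (153), Cebpd (122), Ebf2 (115), Zfp423 (111) and Ehmt1 (107 normalized counts per kb) followed, and every neighboring pair among these 6 overlapped. Prdm16 (50.3) and Zfp516 (48.3) were the lowest, were apart from Ehmt1, and overlapped each other, with Prdm16 the higher in 3 of 6 samples. Of the summed level per kb of the 3 C/EBP genes, Cebpb made up 9.77%, 11.3% and 10.2% in control, against 6.48%, 7.17% and 9.80% in AKO. The share in AKO replicate 3 was just above that in control replicate 1 (means 10.4% ± 0.786 and 7.82% ± 1.75, SD, n = 3, exact permutation test, 2-sided p = 0.2).

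**Figure D3:**
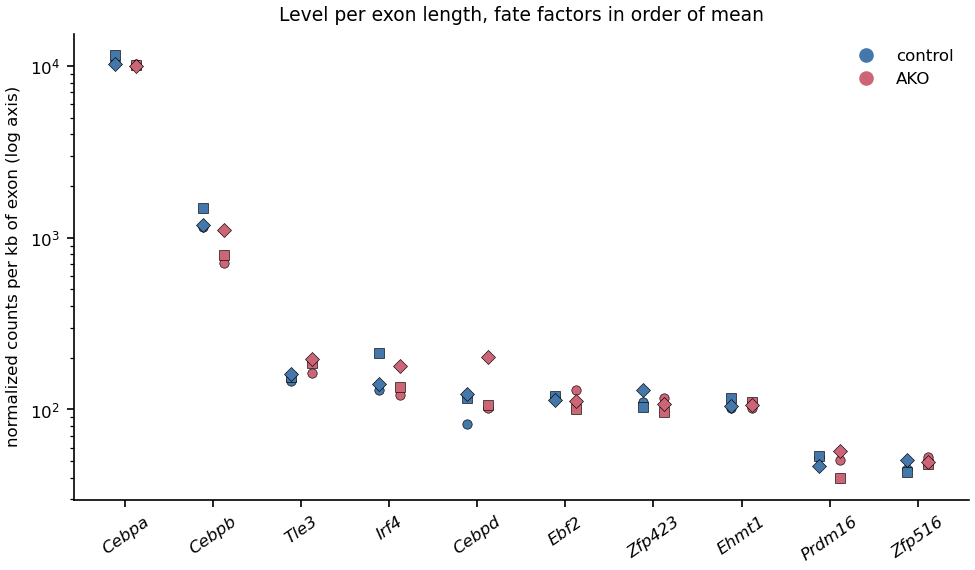
Normalized counts per kb of exon (log axis) of the 10 genes in the 6 samples, in order of their mean, with colors for groups and shapes for replicates. Cebpa and Cebpb stand above the rest, 6 genes lie together between about the levels of Tle3 and Ehmt1, and Prdm16 and Zfp516 are lowest.

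The spread between samples differed among the 10 genes. The SD within groups on the log2 scale was 0.45 for Cebpd, 0.34 for Irf4 and 0.27 for Cebpb, where the median over all genes tested was 0.14. Cebpa (0.06), Ehmt1 (0.09), Zfp516 (0.10) and Tle3 (0.11) were below that median, and Ebf2 was just below it (0.136 against 0.141). A difference of a given size was thus easier to see in these 5 genes than in Cebpd or Irf4.

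The genes that the activators serve were compared next, from a list of 15 brown target genes, of which 14 were tested. The study picked out Ucp1, Cidea, Dio2 and Cox7a1 from this very data set, so the list is not independent evidence of its direction. Of the 14, 13 were lower in AKO and 12 had a p under 0.05 before adjustment, with a median log2 fold change of -0.82. limma called 1, Elovl3 (log2 fold change -1.64), whose call was kept without control replicate 2 and lost without any other sample (adjusted p = 0.0305 to 0.117 over the 6 fits). It was also lost with the replicate number as a block in limma (adjusted p = 0.0529). DESeq2 called 11, all lower, where it called 0.757% of all genes lower. Ucp1, the uncoupling protein that lets mitochondria make heat, had a log2 fold change of -1.75 (SE 0.21), Dio2, which activates thyroid hormone, -1.36, Cox7a1 -1.07 and the lipid droplet protein gene Cidea -0.82. The calls also included Slc27a2, an acyl-CoA synthetase (log2 fold change -1.51, adjusted p = 0.130 from limma and 1.5e-08 from DESeq2). Letmd1, a mitochondrial protein that brown fat needs for its respiration, had a log2 fold change of -0.83 (adjusted p = 0.0909 from limma and 3.9e-10 from DESeq2). Otop1, a proton channel gene, had -0.72, Cox8b, a cytochrome oxidase subunit, -0.62, Ppara, a nuclear receptor of fat oxidation, -0.53 and Kcnk3, a potassium channel gene that marks brown fat, -0.48. Ppargc1a, Cpt1b and Cited1 were not called, and Cited1 was the single gene of the list with a higher AKO mean. DESeq2 called Otop1, Cox8b, Ppara and Kcnk3 with adjusted p-values of 0.00162, 0.000334, 0.0474 and 0.0207. For 9 of the 10 fate factors, the antagonists Tle3 and Zfp423 among them, the whole 95% interval lay above the median of this list. Cebpb was the exception. The intervals of Kcnk3, Ppargc1a and Cited1 from the list itself also lay above it (lower ends -0.81, -0.68 and -0.67). As the list was chosen with earlier results of these data known, this count does not test whether fate factors and targets differ. The AKO mean was within 10% of the control mean for 7 of the 10.

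**Figure D4:**
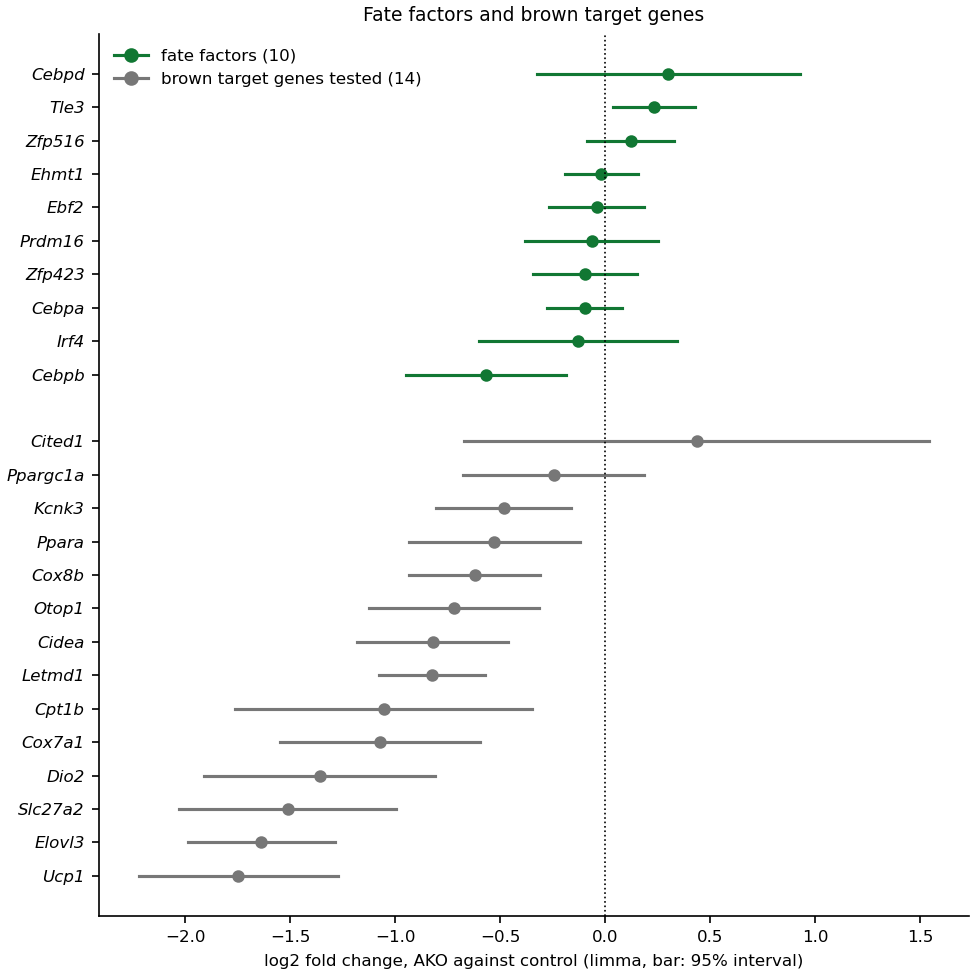
Log2 fold changes of AKO against control for the 10 fate factors and the 14 tested brown target genes, with points for the limma estimate and bars for its 95% interval. The fate factors lie around 0 apart from Cebpb and Tle3, whose intervals do not reach 0, and 13 of the 14 target genes lie left of 0.

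Ratios of 2 genes within a sample do not depend on the scaling of the sample. The log2 ratio of Ucp1 to Prdm16 was 5.19, 5.66 and 5.26 in control, against 3.50, 3.70 and 3.86 in AKO. The AKO values were far under the controls, and the mean difference of -1.68 put the ratio at 0.312 of its control value (exact permutation test, 2-sided p = 0.1, adjusted p = 0.3 over 6 ratios). Ucp1 to Ebf2 differed by -1.71 in the same way (4.61 ± 0.283 in control and 2.90 ± 0.381 in AKO, SD, n = 3, exact permutation p = 0.1, adjusted p = 0.3). Since Prdm16 and Ebf2 had log2 fold changes of -0.06 and -0.04, both ratios largely restate the lower level of Ucp1 (-1.75). The study had picked out Ucp1 from this data set, so these ratios are not independent evidence. With 3 samples against 3 no ratio could pass the threshold. The log2 ratio of Cebpb to Cebpa was -4.00, -3.77 and -3.93 in control and -4.64, -4.49 and -3.98 in AKO. It differed by -0.47 with an overlap at AKO replicate 3 (exact permutation p = 0.2, adjusted p = 0.4). The ratios that set an activator against its antagonist overlapped between the groups. Prdm16 to Tle3 differed by -0.30 (exact permutation p = 0.3, adjusted p = 0.45) and Ebf2 to Zfp423 by 0.06 (exact permutation p = 0.9). Cebpd to Cebpa differed by 0.40 (exact permutation p = 0.5, adjusted p = 0.6).

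**Figure D5:**
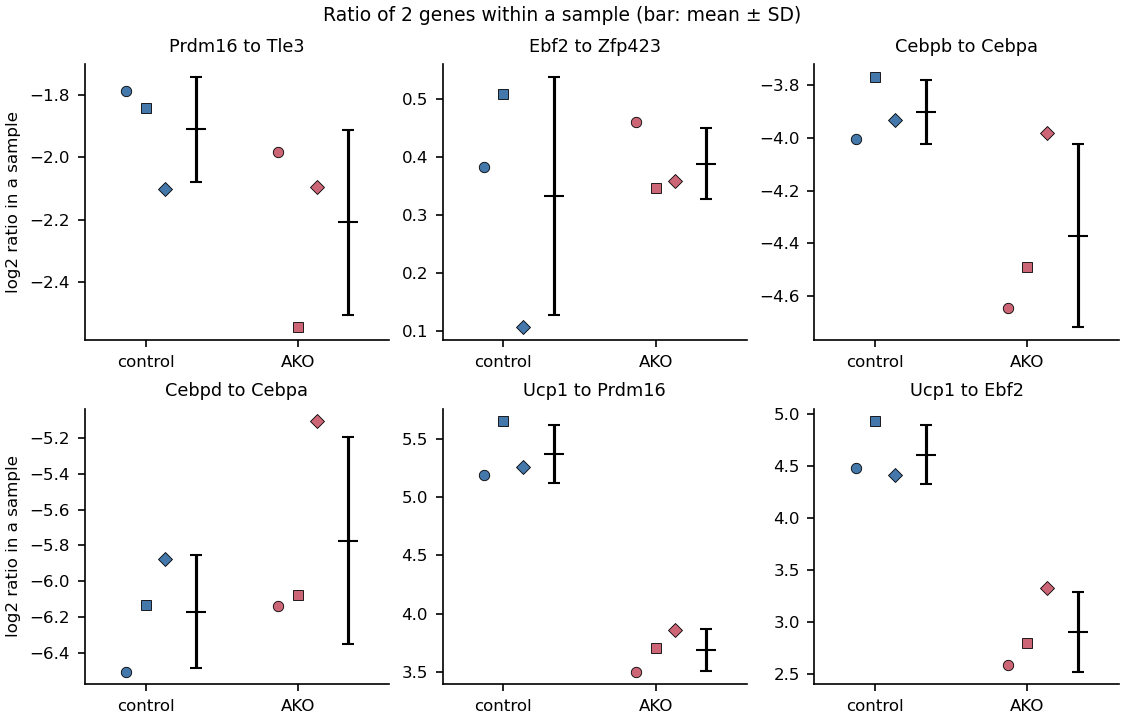
Log2 ratio of 2 genes within each sample for 6 pairs of genes, with shapes for replicates and bars for mean ± SD. Both ratios with Ucp1 separate the groups, by -1.68 and -1.71 in the means, which largely restates the lower level of Ucp1, and the other 4 overlap.

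Genes for proteins that work with the fate factors had a median near 0 as well. Of 16 genes for partners and enzymes of PRDM16, EBF2, ZFP516 and EHMT1, all tested, 8 were lower and 8 higher in AKO, with a median log2 fold change of -0.01. None was called by limma or DESeq2, and 1 had a p under 0.05 before adjustment with limma. This was Hdac1, a histone deacetylase, with a mean of 312 ± 5.72 in control and 270 ± 6.97 in AKO (SD, n = 3, log2 fold change -0.21, SE 0.08, limma adjusted p = 0.506). Smarca4, the motor of the BAF chromatin remodeler, had a log2 fold change of -0.11 (adjusted p = 0.625), Ehmt2, the partner enzyme of EHMT1, -0.03, and the corepressor Ctbp1 0.00 (SE 0.08, both with an adjusted p over 0.9 from limma).

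Among 13 other regulators of brown and beige fate, of which 12 passed the filter on low values, none was called by limma or DESeq2, 2 were lower and 1 was higher with a p under 0.05 before adjustment, and the median was 0.06. Tbx15, a T-box factor of inguinal and brown fat precursors, had a mean of 412 ± 34.0 in control and 524 ± 47.1 in AKO (SD, n = 3, log2 fold change 0.35, limma adjusted p = 0.387), and the groups did not overlap. Nfia, which opens brown-type enhancers, had a log2 fold change of -0.20 (limma adjusted p = 0.515) and Zbtb7b, a zinc finger factor of brown and beige development, -0.14 (limma adjusted p = 0.539). For both, the AKO values lay under the control range.

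The 16 general adipogenic factors, all tested, had no call by limma or DESeq2 and no p under 0.05 before adjustment, with a median of -0.01. Pparg, the master factor of adipocyte formation, had a mean of 5859 ± 552 in control and 5609 ± 158 in AKO (SD, n = 3, log2 fold change -0.06). The lipogenic factor Srebf1 had a log2 fold change of 0.05, Stat5b, a mediator of growth hormone and prolactin signals, 0.13, and the oxysterol receptor gene Nr1h3 -0.13. Of 19 white-selective and anti-adipogenic factors, 17 were tested, with no call by limma or DESeq2, 1 p under 0.05 before adjustment and a median of 0.00. The stress factor Ddit3, a C/EBP-family inhibitor of the other C/EBP proteins, had a mean of 251 ± 11.3 in control and 211 ± 14.2 in AKO (SD, n = 3, log2 fold change -0.25, limma adjusted p = 0.510). Hoxc10 had -0.17, Hoxc8 -0.04 and Foxo1 0.03.

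Of 22 paralogs of the 10 genes, 20 were tested, none was called by limma or DESeq2, and 1 was lower and 1 higher before adjustment, with a median of 0.05. Irf2 had a mean of 2026 ± 134 in control and 1693 ± 113 in AKO (SD, n = 3, log2 fold change -0.26, limma adjusted p = 0.414), and Irf5, a factor of macrophages, had 229 ± 31.1 and 307 ± 24.4 (log2 fold change 0.43, limma adjusted p = 0.387). The groups overlapped for neither gene. Ebf1, a paralog of Ebf2, had a log2 fold change of -0.01 (SE 0.12), whose sign turned with TMM factors, edgeR and DESeq2 (0.00, 0.01 and 0.00).

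None of 9 white-enriched genes was called by limma or DESeq2 or had a p under 0.05 before adjustment. Their log2 fold changes ran from -0.56 to 0.36 with a median of 0.04, and were -0.06 for Retn, which PRDM16 represses, 0.36 (95% interval -0.19 to 0.91) for Lep and 0.25 for Npr3. Of 10 genes that depend on C/EBP proteins in adipocytes, 8 were lower in AKO, with a median of -0.11, none was called by limma or DESeq2, and 2 had a p under 0.05 before adjustment. These were Pck1, the enzyme of glyceroneogenesis, with a mean of 52608 ± 10239 in control and 39759.5 ± 2646 in AKO (SD, n = 3, log2 fold change -0.39, limma adjusted p = 0.505) and the glycerol channel gene Aqp7 (log2 fold change -0.25, limma adjusted p = 0.527). In both, the AKO values lay under the control range. Fabp4 had a log2 fold change of -0.17 (limma adjusted p = 0.747) and Scd1 0.25 (limma adjusted p = 0.781).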

How the data were processed

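RNA was sequenced from iWAT of 3 control and 3 AKO samples. The authors aligned reads with STAR to GRCm38, counted them per gene with featureCounts on GENCODE M25 and divided them by DESeq2 size factors, and deposited the resulting signal per gene and sample (normalized counts) for 16538 genes. Also in the deposited file are log2 fold changes and p-values of the authors' own test, none of which were used. The filter on genes and the strand setting are not given in the sources used here.

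Groups were taken from the labels. Nothing says whether the samples are separate cohorts, and p-values measure the spread between these pools of 2 mice. limma (version 3.58.1, R 4.3.3) with a variance trend was fitted to log2(value + 1) for genes with a mean of at least 10. Fold changes on this scale understate changes of genes with few counts. Dividing each sample by what 1 read is worth (0.960 to 1.08 normalized counts, lower in every AKO than in every control sample) gave whole reads for 100% of values within 0.01 reads. These reads went into edgeR (version 4.0.16) and DESeq2 (version 1.42.0). Within groups, samples differed by more than counting noise (chi-square per degree of freedom 10.3 to 21.3). Single values were compared with exact permutation tests over samples. Scripts were tested on simulated data.

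The 10 genes and all lists were chosen with earlier results of these data known. Named in each list were genes called by limma or DESeq2, the 2 with the highest mean and the 2 with the lowest p. Tmem189 and Spidr were named after their values were seen. Positions and exon lengths are from GENCODE M21 (GRCm38). Alternatives were other pseudocounts, filters, factors, tests, thresholds, robust shrinkage, a replicate block and omission of each sample in turn.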

Additional observations from a re-analysis of the deposited data

How the results depend on the processing

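Over 16 alternatives for each of the 10 fate factors, 152 of 160 log2 fold changes kept their direction and their side of the threshold, 6 turned sign and 2 passed the threshold. Cebpb passed with DESeq2 (log2 fold change -0.55, adjusted p = 0.0354) and with a replicate block in DESeq2 (-0.57, adjusted p = 0.0157), so that 1 of 10 was called there instead of 0, and the cause was not tested. The adjusted p of Cebpb with 1 sample left out was 0.402 to 0.718 (limma). Over all genes, limma called 2. The count was 6 with at least 10 normalized counts in every sample, 11 with robust shrinkage, 11 at an adjusted p under 0.1, 149 with DESeq2 and 193 with the replicate block in DESeq2, and 0 to 3 with 1 sample left out. Calls were lost without control replicate 1, control replicate 3 or any of the AKO samples. The cause of these differences was not tested.

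The replicate numbers did not pair the samples, since samples with the same number deviated from their group means with correlations of 0.135, -0.351 and 0.240, and control replicate 1 correlated best with AKO replicate 2 (0.232). With a replicate block in limma 2 genes were called, both higher, and none of the 10 fate factors. With the block in DESeq2, 100 genes were lower and 93 higher, against 113 and 36 without it.

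With 1 sample left out, log2 fold changes ranged from -0.18 to 0.085 for Prdm16, -0.14 to 0.051 for Ebf2, -0.021 to 0.47 for Cebpd, -0.29 to 0.087 for Irf4 and -0.057 to 0.041 for Ehmt1. The log2 ratio of Ebf2 to Zfp423 ranged from -0.057 to 0.14. Other named genes whose sign turned ranged from -0.061 to 0.060 (Ctbp1), -0.063 to 0.026 (Ehmt2), -0.13 to 0.0075 (Pparg), -0.10 to 0.031 (Hoxc8), -0.036 to 0.14 (Foxo1), -0.12 to 0.12 (Ebf1), -0.12 to 0.030 (Retn) and -0.063 to 0.041 (Tmem189). Ebf1 also turned with TMM factors (0.00080), edgeR (0.014) and DESeq2 (0.0015), and Tmem189 with edgeR (0.0014). The fate factors had at least 306 reads in every sample. With 3 samples a group, exact permutation tests cannot go below 0.1, with or without 1 sample left out.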
